A study of Rattus norvegicus with 24 samples.

Results

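The genes described here make, sense, move, take up and export cholesterol. They were listed by name: 19 genes of the synthesis pathway and 14 genes of its control, of transport and storage, and of uptake and export, 33 in all. A gene was found on the array where the accession of a probe matched its rat symbol. This held for 30 of the 33 genes, all 19 synthesis genes and 11 of the other 14, through 39 of the 41012 probes. Scap, Stard4 and Npc1 had no matching probe. The prostate test covered 23829 genes, these 30 among them.

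The study asked which genes the androgen dihydrotestosterone (DHT) changes in 4 rat tissues. All animals were Sprague-Dawley rats of 12 weeks. Males were castrated, and 3 days later received a single intraperitoneal dose of DHT (10 mg/kg) or vehicle, and their prostate, skin and forebrain were taken after 16 h, so that the vehicle males were castrated as well. Ovaries came from females that the labels list as intact and that received the same dose for the same time. The design text speaks of castrated males for every tissue, and the sample labels were followed. Each of the 8 groups had 3 arrays. Vehicle array 3 of forebrain, which failed quality control per its label, was left out. This left 23 of 24 arrays, with 2 against 3 in forebrain. The design text calls the samples biological replicates, but the labels do not say that they came from separate animals, so the p-values speak of the spread among these arrays, which may be technical. The values show a single time after a single dose.

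The cell builds cholesterol from acetyl-CoA through mevalonate, isoprenoid units, squalene and lanosterol. Control is by feedback: when sterol in the endoplasmic reticulum falls, the SREBP transcription factor encoded by Srebf2 is escorted to the Golgi by Scap, cut and sent to the nucleus, where it raises the synthesis genes together with NF-Y and Sp1 at their promoters. The Insig proteins hold Scap back when sterol is plentiful, and the LXR receptors, encoded by Nr1h2 and Nr1h3, answer to oxysterols and raise export. In prostate, androgens are known to promote lipid synthesis, and in the ovary cholesterol is the substrate of steroid hormones.

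SREBP acts near the start site of the synthesis genes. The promoters of 6 members, synthesis genes and both Insig genes picked by name, are shown. Their response to DHT in prostate is described further on. The NF-Y box (CCAAT, or ATTGG where it lies on the other strand) is in capitals. Each stretch is the 220 bases before the start site in RefSeq (GRCr8), read along the gene from 5′ to 3′. The positions are chr2:53382084-53382303 on the plus strand for Hmgcs1, chr19:67414975-67415194 on the minus strand for Mvd, chr17:66547525-66547744 on the minus strand for Idi1, chr16:29746893-29747112 on the plus strand for Msmo1, chr4:8057770-8057989 on the minus strand for Insig1 and chr13:35040099-35040318 on the minus strand for Insig2. Of these 6 genes, 5 rose and Insig2 fell.
Hmgcs1: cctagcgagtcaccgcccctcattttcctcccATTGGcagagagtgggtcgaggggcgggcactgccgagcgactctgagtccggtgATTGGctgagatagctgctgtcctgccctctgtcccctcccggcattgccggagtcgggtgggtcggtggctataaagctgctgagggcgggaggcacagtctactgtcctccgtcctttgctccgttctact
Mvd: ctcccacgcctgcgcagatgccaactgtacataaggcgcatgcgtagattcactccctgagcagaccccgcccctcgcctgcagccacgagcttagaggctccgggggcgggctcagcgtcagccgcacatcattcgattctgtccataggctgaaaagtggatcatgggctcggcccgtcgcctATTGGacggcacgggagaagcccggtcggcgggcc
Idi1: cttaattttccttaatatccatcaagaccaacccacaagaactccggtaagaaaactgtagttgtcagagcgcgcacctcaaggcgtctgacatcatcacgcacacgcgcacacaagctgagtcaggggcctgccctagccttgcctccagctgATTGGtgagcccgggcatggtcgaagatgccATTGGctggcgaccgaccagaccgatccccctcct
Msmo1: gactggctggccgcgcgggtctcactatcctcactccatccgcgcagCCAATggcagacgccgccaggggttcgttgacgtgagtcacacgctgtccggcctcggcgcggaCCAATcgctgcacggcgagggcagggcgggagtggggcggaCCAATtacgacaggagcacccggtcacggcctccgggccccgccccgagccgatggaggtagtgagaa
Insig1: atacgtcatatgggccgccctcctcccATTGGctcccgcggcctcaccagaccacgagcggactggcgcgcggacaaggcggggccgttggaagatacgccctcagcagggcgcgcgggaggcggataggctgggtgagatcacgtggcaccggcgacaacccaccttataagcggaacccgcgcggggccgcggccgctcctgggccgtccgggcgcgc
Insig2: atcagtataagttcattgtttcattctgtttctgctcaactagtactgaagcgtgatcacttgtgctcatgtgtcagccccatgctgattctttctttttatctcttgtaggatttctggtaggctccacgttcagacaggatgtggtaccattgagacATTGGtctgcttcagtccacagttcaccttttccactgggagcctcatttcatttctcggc

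Every stretch holds the NF-Y box, with 3 copies in Msmo1, 2 in Hmgcs1 and Idi1 and 1 in Mvd, Insig1 and Insig2. RefSeq windows from 250 bases before to 50 bases after the start site were at hand for 27 of the 33 members and not for Pmvk, Fdft1, Sqle, Stard4, Scarb1 and Abcg1. In those windows, searched on both strands, the NF-Y box CCAAT was present in 13 of 16 synthesis genes (81.2%) and in 6 of 11 other members (54.5%), against 37.5% of all 33469 promoters of the same length. The Sp1 box GGGCGG was present in 13 of 16 synthesis genes (81.2%) and in 8 of 11 others (72.7%), against 33.1% of all promoters. The sterol regulatory element core TCACNCCAC was in 0 of 27 members, against 1.12% of all promoters. With at most 1 letter changed, a looser search added after the exact search had been run, it was in 11 of 27 (40.7%), against 23.7%. The androgen response element core hexamer AGAACA was in 3 of 27 members (11.1%), Hsd17b7, Scap and Abca1, against 20.7% of all promoters. A match describes the letters of a window and is not a bound site, and matches of different motifs shared letters in 0 of the 27 windows. The NF-Y box was in 10 of 13 synthesis genes that rose in prostate and in 3 of 3 that did not pass and had a window (Mvk, Ggps1 and Ebp). Acat2, Cyp51 and Dhcr7 rose and had a window without the box, and none of them is among the stretches shown.

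Levels are given as log2 of the signal relative to the 75th percentile of the same array, so a level of 0 is a signal equal to that percentile. Every member's probe was well above background on all 24 arrays except that of Soat1 (21 arrays). Prostate vehicle array 3 (1531 spots marked as outliers, narrower signal range), ovary vehicle arrays 1 and 3 (narrow signal range) and forebrain DHT array 1 (87.5% of probes well above background, against 65.3% to 75.7% on the other forebrain arrays used) stood apart. Vehicle and DHT arrays lay on different slides, so within a tissue slide and treatment cannot be told apart. Defining markers followed the tissue labels, with the summed level of 6 measured luteal genes between 7.91 and 8.37 in ovary, of 5 keratinocyte genes between 7.51 and 8.87 in skin, of 9 neuronal genes between 7.29 and 7.94 in forebrain and of 7 luminal epithelial genes with a value on every array between 7.0 and 7.79 in prostate. The prostate secretory gene Pbsn, which depends on androgen, had a level of -3.81 ± 0.22 (SD) on vehicle and 2.04 ± 0.59 on DHT arrays.

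In prostate, cholesterol synthesis genes rose along nearly the whole pathway. Of 19 synthesis genes, 15 rose, 0 fell and 4 did not pass (limma, adjusted p under 0.05), where 5.03% of all genes tested rose and 9.64% changed in either direction. Their median log2 fold change was 1.88, against 0.06 over all genes tested. Of the 11 measured members of control, transport, uptake and export, Insig1 and Tmem97 rose, Insig2 fell and 8 did not pass, with a median of -0.08. Together 17 of 30 members rose, each at least 2-fold and 8 of them at least 4-fold, and 1 fell. All DHT arrays lay above all vehicle arrays in 19 members, against 19.3% of all genes tested, and below them in 1, against 16.5%. The synthesis genes had a mean level, over the 17 with a value on every array, of 0.97, 0.96 and 1.58 on the vehicle arrays and 2.77, 2.76 and 2.69 on the DHT arrays. Vehicle array 3 lay above the other vehicle arrays and below all DHT arrays. In whole tissue, more cells that express these genes and more RNA per cell cannot be told apart.

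**Figure D1:**
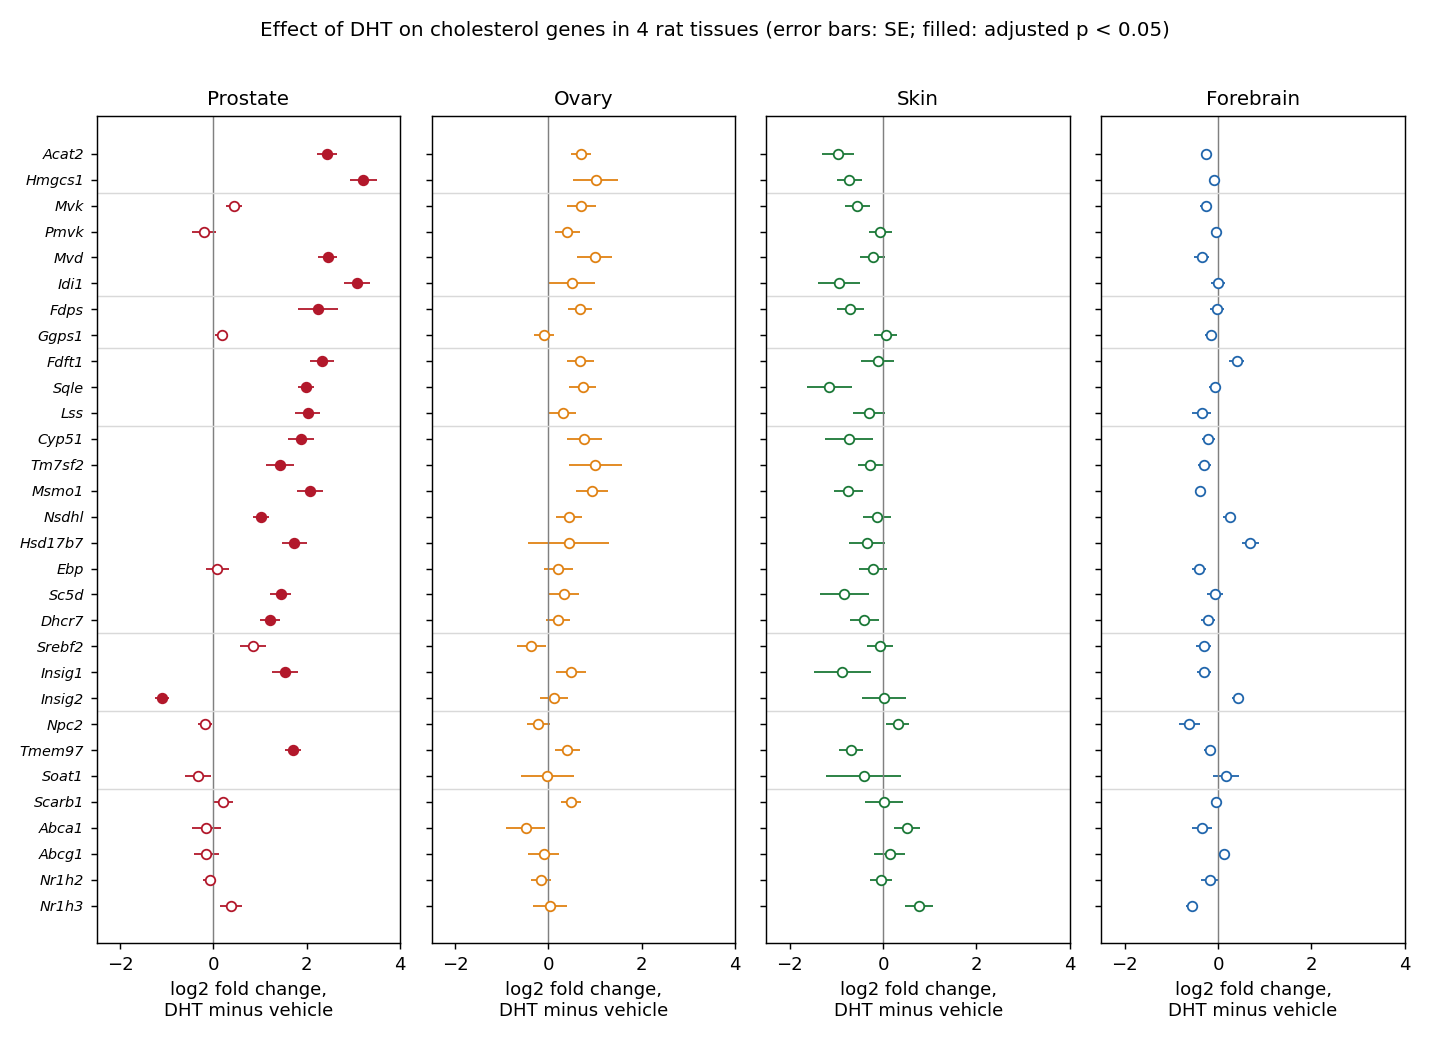
Log2 fold change with DHT (horizontal axis, DHT minus vehicle, with the standard error) of 30 cholesterol genes, in pathway order from top to bottom, in each of 4 tissues; filled points passed an adjusted p of 0.05. In prostate 17 genes lie to the right and filled and Insig2 lies to the left, while in the other tissues 0 members passed.

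The start of the mevalonate arm had the gene with the largest rise of all members. Acat2 encodes the thiolase that condenses acetyl-CoA in the cytosol, and its level was 1.53, 1.40 and 2.08 on the vehicle and 4.07, 4.20 and 4.05 on the DHT arrays, with no overlap. It rose by 2.44 ± 0.21 log2 units (SE, n = 3 each, adjusted p = 0.0045, limma), or 5.41-fold. Hmgcs1, the cytosolic synthase of the next step, stood at 2.47, 2.67 and 3.14 with vehicle and at 6.31, 5.44 and 6.17 with DHT, again with no overlap. Its rise was 3.21 ± 0.29 (9.27-fold, adjusted p = 0.00482), the largest among the 30 members, and its other probe gave 3.89.

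Of the 4 enzymes from mevalonate to the isoprenoid units, Mvd and Idi1 rose and the kinases Mvk and Pmvk did not pass. Mvd, the decarboxylase that makes isopentenyl diphosphate, had levels of 0.97, 0.95 and 1.51 on vehicle and 3.75, 3.42 and 3.60 on DHT arrays. It rose by 2.45 ± 0.21 (5.46-fold, adjusted p = 0.00425) and had the smallest p of all members. Idi1, the isomerase that turns isopentenyl into dimethylallyl diphosphate, went from 1.46, 1.42 and 2.31 to 4.97, 4.61 and 4.86, a rise of 3.09 ± 0.28 (8.49-fold, adjusted p = 0.00481) with 2.79 on its other probe. In both genes the DHT arrays lay clear of the vehicle arrays.

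Mvk, mevalonate kinase, had 1.11, 1.25 and 1.64 with vehicle and 1.84, 1.77 and 1.72 with DHT, which do not overlap but lie close (0.44 ± 0.18, adjusted p = 0.175). Pmvk, phosphomevalonate kinase, had 3.56, 4.01 and 4.54 with vehicle and 3.94, 3.86 and 3.71 with DHT, overlapping (-0.20 ± 0.26, adjusted p = 0.663). The 95% interval for Pmvk reached from -0.83 to 0.43. Mvk passed with array weights (0.51, adjusted p = 0.0393, limma). In that fit 5158 of 23829 genes passed, against 2298 without weights.

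Of the prenyl diphosphate synthases, Fdps rose and Ggps1 did not pass. Fdps makes farnesyl diphosphate, from which squalene and the prenyl groups of proteins derive. Its levels were 4.92, 5.10 and 6.11 on vehicle and 7.96 and 7.30 on DHT arrays 1 and 3, since its spot on DHT array 2 was marked as an outlier and left out. The rise was 2.25 ± 0.43 (4.76-fold, 3 vehicle and 2 DHT arrays, adjusted p = 0.0351), with 2.32 on its other probe. Ggps1, which lengthens farnesyl to geranylgeranyl diphosphate outside the sterol branch, had -1.39, -1.54 and -1.45 with vehicle and -1.34, -1.16 and -1.35 with DHT (0.18 ± 0.14, adjusted p = 0.453), close but with no overlap.

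All 3 genes of squalene formation and ring closure rose. Fdft1, squalene synthase and the committed step of sterol synthesis, had -0.38, -0.55 and 0.30 on vehicle and 2.10, 2.32 and 1.96 on DHT arrays, a rise of 2.34 ± 0.25 (5.05-fold, adjusted p = 0.00638). Sqle, the epoxidase of squalene, went from 1.28, 1.21 and 1.66 to 3.35, 3.50 and 3.25, a rise of 1.99 ± 0.18 (3.97-fold, adjusted p = 0.00482). Lss, which closes the rings to lanosterol, went from 1.11, 1.39 and 2.10 to 3.53, 3.61 and 3.55, a rise of 2.03 ± 0.27 (4.07-fold, adjusted p = 0.0102). The groups did not overlap in any of the 3 genes, and the vehicle values of Lss spread more widely than its DHT values.

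Of the 8 genes that turn lanosterol into cholesterol, 7 rose. Cyp51, the lanosterol demethylase, had 0.81, 0.59 and 1.57 with vehicle and 2.82, 3.05 and 2.74 with DHT (1.88 ± 0.28, 3.68-fold, adjusted p = 0.0137). Hsd17b7, a reductase in the removal of the methyl groups at C4 that also acts on estrone, had -2.97, -3.02 and -2.20 with vehicle and -1.03, -1.18 and -0.77 with DHT (1.74 ± 0.26, 3.33-fold, adjusted p = 0.0149). Msmo1, the oxidase of the same steps, had 4.51, 4.40 and 5.17 with vehicle and 6.77 and 6.75 on DHT arrays 1 and 3. Its spot on DHT array 2 was an outlier and was left out, and it rose by 2.07 ± 0.28 (4.19-fold, 2 DHT arrays, adjusted p = 0.0154).

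The remaining 4 genes that rose had smaller changes. Sc5d, a sterol desaturase, went from a mean of -0.80 ± 0.39 (SD) to 0.64 ± 0.16 (1.44 ± 0.23 SE, adjusted p = 0.0167). Tm7sf2, a sterol reductase, went from 1.93 ± 0.51 to 3.35 ± 0.31 (1.42 ± 0.30, adjusted p = 0.0356). Dhcr7, whose product makes cholesterol from its last precursor in the branch through dehydrocholesterol, went from 1.18 ± 0.29 to 2.39 ± 0.22 (1.21 ± 0.21, adjusted p = 0.0216). Nsdhl, the dehydrogenase that works with Msmo1, had the smallest rise, from -0.37 ± 0.17 to 0.64 ± 0.19 (1.01 ± 0.17, 2.02-fold, adjusted p = 0.0202).

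Ebp, the isomerase of the sterol ring, was the member of this stage that did not pass. It had 5.32, 5.72 and 6.21 on vehicle and 6.0, 5.68 and 5.81 on DHT arrays, overlapping (0.08 ± 0.25, adjusted p = 0.859). Its 95% interval reached from -0.52 to 0.69.

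**Figure D2:**
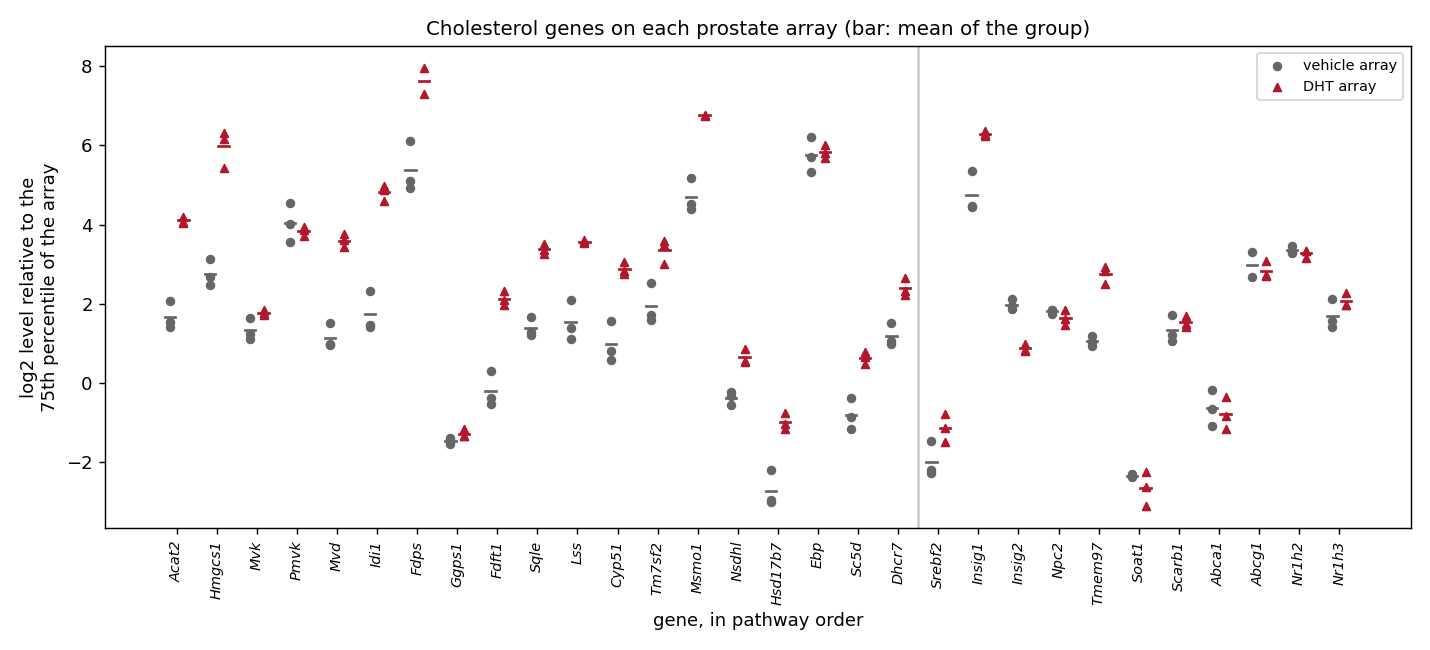
Log2 level relative to the 75th percentile of the array (vertical axis) of 30 cholesterol genes on each prostate array, vehicle as grey circles and DHT as red triangles, with a bar at the group mean; the vertical line parts the 19 synthesis genes from the other 11. Levels of different genes come from different probes and are compared only within a gene: in 19 genes all DHT arrays lie above all vehicle arrays, and in Insig2 below them.

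The sensors of the pathway moved in opposite directions. Insig1, which retains Scap in the endoplasmic reticulum and is itself raised by SREBP, had 4.44, 4.46 and 5.36 with vehicle and 6.35, 6.23 and 6.30 with DHT. It rose by 1.54 ± 0.27 (2.91-fold, adjusted p = 0.0221), and its 3 other probes gave 1.65, 1.96 and 2.19. Insig2, which has the same role but does not depend on SREBP in the same way, had 1.93, 1.87 and 2.12 with vehicle and 0.81, 0.83 and 0.98 with DHT. It fell by 1.1 ± 0.15 log2 units (adjusted p = 0.0106), where 4.61% of all genes tested fell, and its other probe gave -1.24. In neither gene did the groups overlap. Both calls depended on the processing. Insig2 no longer passed with another background correction (normexp), in the fit of all 23 arrays, or without DHT array 2, and its adjusted p lay between 0.00369 and 0.104 over the 12 alternatives that had no replicate block. Insig1 no longer passed with no filter on dim probes, in the fit of all 23 arrays, or without any 1 of vehicle arrays 1 and 2 and DHT arrays 1, 2 and 3, and its adjusted p over the same alternatives lay between 0.00238 and 0.0795.

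Srebf2, the transcription factor itself, did not pass, although its value was positive. Its levels were -2.20, -2.29 and -1.48 on vehicle and -0.79, -1.13 and -1.48 on DHT arrays, so that vehicle array 3 met DHT array 3 (0.85 ± 0.29, adjusted p = 0.116). Its other probe gave 1.22. It passed without vehicle array 3 (1.11, adjusted p = 0.0395, limma), with the mean of both probes (1.04, adjusted p = 0.0474) and with array weights (0.96, adjusted p = 0.0245). In these fits 2739 of 23014, 2235 of 23829 and 5158 of 23829 genes passed, in the same order. In the fit reported, 2298 of 23829 did.

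In intracellular transport and storage, Tmem97 was the 1 gene of 3 that rose. Tmem97, a membrane protein that binds the lysosomal cholesterol transporter NPC1 and lowers its amount, had 0.93, 1.02 and 1.20 with vehicle and 2.93, 2.84 and 2.50 with DHT, with no overlap (1.71 ± 0.18, 3.26-fold, adjusted p = 0.0058). Npc2, which passes cholesterol to that transporter in the lysosome, had 1.85, 1.85 and 1.73 with vehicle and 1.45, 1.83 and 1.61 with DHT (-0.18 ± 0.16, adjusted p = 0.51). Soat1, which esterifies cholesterol for storage, had -2.31 and -2.38 on vehicle arrays 1 and 2, its spot on vehicle array 3 being an outlier, and -3.11, -2.26 and -2.64 with DHT (-0.33 ± 0.28, adjusted p = 0.507).

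Of the 5 genes of uptake, export and their receptors, 0 passed in prostate. Scarb1, the receptor that takes up cholesteryl ester from high density lipoprotein, had 1.05, 1.70 and 1.22 with vehicle and 1.48, 1.42 and 1.70 with DHT (0.21 ± 0.21, adjusted p = 0.563; -0.02 on its other probe). Abca1, which loads cholesterol on lipid-poor apolipoprotein, had -0.66, -0.17 and -1.09 with vehicle and -1.18, -0.35 and -0.85 with DHT (-0.15 ± 0.31, adjusted p = 0.791). Abcg1, an exporter to mature lipoprotein particles, had 2.67 and 3.31 on vehicle arrays 1 and 2, that of vehicle array 3 being an outlier, and 2.73, 2.70 and 3.08 with DHT (-0.15 ± 0.26, adjusted p = 0.755). In all 3 the groups overlapped.

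The LXR receptors did not pass either. Nr1h2 had 3.47, 3.29 and 3.29 with vehicle and 3.15, 3.34 and 3.32 with DHT (-0.08 ± 0.14, adjusted p = 0.76). Nr1h3 had 1.41, 2.12 and 1.55 with vehicle and 2.28, 1.97 and 1.98 with DHT (0.38 ± 0.23, adjusted p = 0.331). The 95% interval for Nr1h2 lay between -0.43 and 0.27 and that for Nr1h3 between -0.17 and 0.93.

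Other genes of the pathway gave 4 calls in prostate, all rises, among 41 genes measured, where 5.03% of all genes tested rose and 9.64% passed in either direction, so the share in either direction is near that of all genes. Of 5 genes of SREBP processing, Sar1b, a coat component of the vesicles that leave the endoplasmic reticulum, rose by 1.82 ± 0.21 (adjusted p = 0.0069) and Ufd1 by 0.67 ± 0.13 (adjusted p = 0.0314), while the proteases that cut SREBP, Mbtps1 (-0.11 ± 0.18) and Mbtps2 (-0.36 ± 0.20), did not pass. Of 9 accessory genes, Aacs, which makes acetoacetyl-CoA from acetoacetate in the cytosol, rose by 1.42 ± 0.17 (adjusted p = 0.0075). Of 7 genes of efflux and oxysterols, the sterol hydroxylase gene Cyp27a1 rose by 1.09 ± 0.19 (adjusted p = 0.0204). Of 9 genes of the isoprenoid side branches, 8 of transport and storage and 3 of lipoprotein uptake, 0 passed.

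Markers of other cells moved as well in prostate, where 5.03% of all genes tested rose and 4.61% fell. Of 7 measured adipocyte genes, 5 rose (Adipoq, Cd36, Cfd, Cidec and Fabp4, by 1.18 to 1.60), and the summed level of the list was 6.05 to 6.27 on vehicle and 7.06 to 7.86 on DHT arrays. The defining marker Adipoq was at 2.34 ± 0.21 (SD) on vehicle arrays, so it was detected there. Of 8 luminal epithelial genes Pbsn rose and Krt8 fell, and the summed level of the 7 with a value on every array was 7.55 to 7.79 on vehicle and 7.0 to 7.20 on DHT arrays, and of 4 basal genes Krt14 and Krt17 fell (6.07 to 6.38 and 5.87 to 6.05). Of 3 sebaceous genes Mc5r and Pparg rose and Soat1, itself a member, did not pass. Soat1 lacked a value on 1 array, so the summed level covers only Mc5r and Pparg. It was -2.06 to -1.78 on vehicle and -0.84 to -0.30 on DHT arrays. Of 4 smooth muscle, 5 fibroblast, 3 endothelial and 6 immune cell genes, 0 passed. Their part in the rise of the cholesterol genes was not tested.

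Some prostate calls depended on a single array or on the processing. Acat2, Hmgcs1, Mvd, Idi1, Fdft1, Sqle, Lss and Tmem97 passed whichever array was left out. The number of members that rose, 17 with all arrays, was 8 without vehicle array 1, 9 without vehicle array 2, 9 without DHT array 2, 9 without DHT array 3 and 18 without vehicle array 3. Calls over all genes, in either direction, moved as well, from 2298 with all arrays to 691, 684, 596, 974 and 2739 in the same order. Fdps, Tm7sf2, Nsdhl, Hsd17b7 and Sc5d also missed the threshold both with normexp and with no filter on dim probes, Msmo1, Dhcr7 and Insig1 with no filter, Insig2 with normexp, and Tm7sf2, Hsd17b7, Insig1 and Insig2 in the fit of all 23 arrays. Log2 fold changes kept their sign in each of the fits with 1 array left out for all 18 members called.

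In ovary, the synthesis genes lay above vehicle but 0 passed. Of 19 synthesis genes 18 had a positive log2 fold change, with a median of 0.68, where 33.5% of all genes tested were positive and the median was -0.23. The adjusted test called 0 of 29457 genes (0%), and at an unadjusted p under 0.05 (limma) 5 synthesis genes were higher, where 0.265% of all genes were. In 8 of 19 synthesis genes the DHT arrays lay wholly above the vehicle arrays, against 2.70% of all genes. The mean level of 17 synthesis genes was 1.81, 1.86 and 1.69 on vehicle arrays and 2.50, 1.86 and 2.66 on DHT arrays, so that DHT array 2 lay within the vehicle range and the other DHT arrays above it.

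The 5 genes were Acat2, Msmo1, Mvd, Fdps and Sqle. Acat2 had 3.28, 3.43 and 3.56 with vehicle and 4.04, 4.22 and 4.11 with DHT (0.70 ± 0.22, adjusted p = 0.451). Msmo1 had 5.75, 6.07 and 5.85 with vehicle and 7.05, 6.20 and 7.24 with DHT (0.94 ± 0.33, adjusted p = 0.467). Mvd had 2.69, 2.74 and 2.96 with vehicle and 4.00, 3.06 and 4.31 with DHT (0.99 ± 0.37, adjusted p = 0.467). The low value of DHT array 2 in Msmo1 and Mvd recurred in Hmgcs1, which had 3.55, 4.12 and 3.96 with vehicle and 5.17, 3.87 and 5.63 with DHT (1.02 ± 0.49, adjusted p = 0.485), and in Tm7sf2 (1.01 ± 0.57, adjusted p = 0.522).

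The other members in ovary had a median of -0.02. Scarb1, through which ovarian cells take up lipoprotein cholesterol, had 6.42, 6.36 and 6.25 with vehicle and 6.90, 6.69 and 6.88 with DHT, with no overlap (0.48 ± 0.21, adjusted p = 0.471; 0.26 on its other probe). Insig1 (0.48 ± 0.32), Tmem97 (0.41 ± 0.26), Insig2 (0.12 ± 0.29) and Srebf2 (-0.36 ± 0.32) did not pass. The other probes of Insig1 were also positive, while those of Insig2 (-0.30) and Srebf2 (0.10) had the opposite sign. Ovary vehicle arrays 1 and 3 had a narrow signal range, and the part of this in the ovary values was not tested beyond the following. Without both arrays the median of the synthesis genes was 0.57, and with quantile normalization it was 0.59 while that of all genes moved from -0.23 to 0.09.

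With weights for the quality of each array, Acat2, Hmgcs1, Mvd, Idi1, Msmo1 and Tmem97 passed in ovary. In that fit 7780 of 29457 genes passed. In the fit of all 23 arrays 518 of 34013 genes passed in ovary (1.52%) and 0 were members.

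In skin, synthesis genes lay below vehicle, again with 0 genes past the adjusted test (0% of 24125). Of 19 synthesis genes 18 had a negative log2 fold change, with a median of -0.40, where 46.2% of all genes were negative and the median was 0.05. At an unadjusted p under 0.05, 2 synthesis genes were lower, against 2.56% of all genes. Acat2 had 3.92, 3.88 and 3.98 with vehicle and 2.32, 3.21 and 3.37 with DHT (-0.96 ± 0.34, adjusted p = 0.753), and Hmgcs1 had 4.23, 3.91 and 3.84 with vehicle and 3.01, 3.28 and 3.50 with DHT (-0.73 ± 0.27, adjusted p = 0.753). In both genes the groups did not overlap and DHT array 1 was the lowest. All DHT arrays lay below all vehicle arrays in 6 of 19 synthesis genes, against 6.18% of all genes.

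In Sqle and Insig1 the skin groups overlapped. Sqle had 2.73, 2.02 and 1.73 with vehicle and 0.15, 1.09 and 1.79 with DHT, with DHT array 3 within the vehicle range (-1.15 ± 0.49, adjusted p = 0.753). Insig1 had 5.31, 4.44 and 4.44 with vehicle and 2.55, 4.29 and 4.72 with DHT (-0.87 ± 0.60, adjusted p = 0.753). Tmem97 was at -0.69 ± 0.25 and Nr1h3 at 0.77 ± 0.29, which with Acat2 and Hmgcs1 were the 4 members with an unadjusted p under 0.05, both at an adjusted p of 0.753. Without DHT array 1 the median of the synthesis genes was -0.27, and without vehicle array 2 it was -0.68.

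Skin DHT array 1 also differed in cell type markers. The summed level of 6 hair follicle genes was 0.48 on that array and 7.02 to 8.52 on the other skin arrays. On skin vehicle array 1 the summed level of 4 skeletal muscle genes was -0.29, against 10.96 to 12.70 elsewhere. Sebaceous genes (3 measured, Soat1 among them) had -0.05 to 0.63 on vehicle and -0.73 to 0.33 on DHT arrays. The part of these cells in the skin values was not tested.

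In forebrain the changes were small and 0 of 26361 genes passed (0%). In 10 of 19 synthesis genes the groups did not overlap, where 47.3% of all genes did not. Of the 19, 16 had a negative log2 fold change, with a median of -0.16 and a range from -0.41 to 0.69, where 52.2% of all genes were negative and the median was -0.02. At an unadjusted p under 0.05, 4 synthesis genes differed, 2 in each direction, where 27.4% of all genes did, so this share is near that of all genes. Hsd17b7 had -2.84 and -2.87 with vehicle and -2.15, -1.93 and -2.43 with DHT (0.69 ± 0.18, adjusted p = 0.0991). Msmo1 had 6.52 and 6.55 with vehicle and 6.19, 6.12 and 6.11 with DHT (-0.39 ± 0.12, adjusted p = 0.115). Ebp was at -0.41 ± 0.15 (adjusted p = 0.166) and Fdft1 at 0.40 ± 0.16 (adjusted p = 0.182).

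Among the other members in forebrain, Nr1h3 (-0.56 ± 0.13, adjusted p = 0.087), Npc2 (-0.61 ± 0.22, adjusted p = 0.157) and Insig2 (0.42 ± 0.12, adjusted p = 0.113) had an unadjusted p under 0.05. With the array left out by the authors included, the median of the synthesis genes was 0.24, the opposite sign. Neuronal markers had a summed level of 7.29 to 7.36 on vehicle and 7.85 to 7.94 on DHT arrays, oligodendrocyte markers 7.46 to 7.87 and 7.06 to 7.12, and skeletal muscle markers 3.85 to 3.91 and 2.75 to 2.89. Their part in the forebrain values was not tested.

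**Figure D3:**
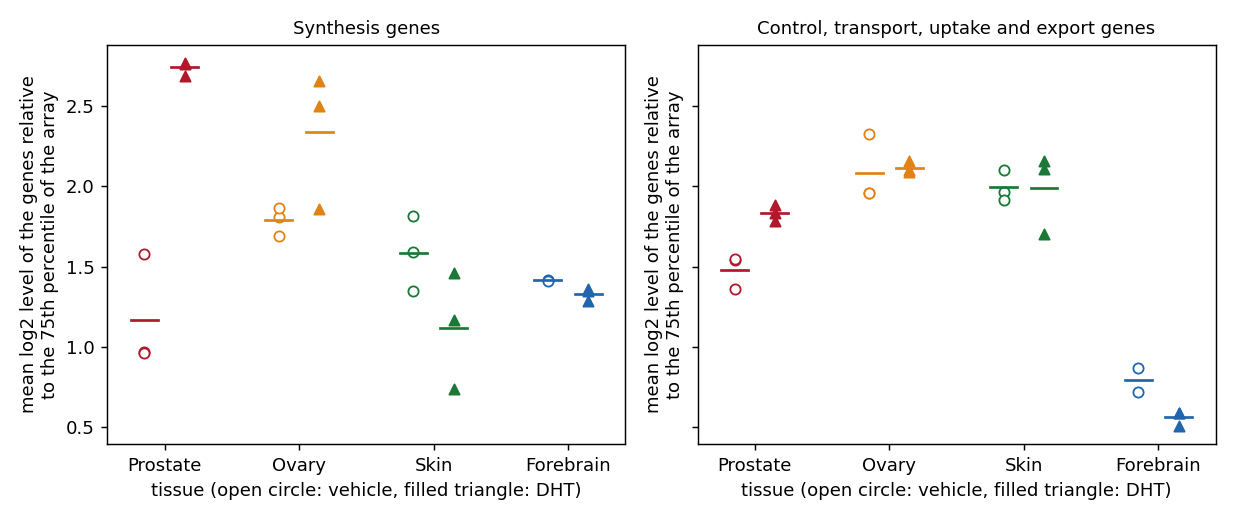
Mean log2 level relative to the 75th percentile of the array (vertical axis) of 17 synthesis genes (left) and of 9 genes of control, transport, uptake and export (right), with 1 point per array, open circles for vehicle and filled triangles for DHT, and a bar at the group mean, in 4 tissues. Synthesis genes in prostate go from 0.96 to 1.58 on vehicle arrays to 2.69 to 2.77 on DHT arrays; Fdps, Msmo1, Soat1 and Abcg1 are left out because a spot was an outlier.

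A test of whether tissues responded differently to DHT used a fit of all 23 arrays with slide as a random block. That fit takes a single estimate of the spread per gene over all tissues, while each tissue fitted alone has its own. The labels do not say whether the prostate, skin and forebrain of a group came from the same males. The effect of DHT differed for 11 of 30 members by the moderated F test (adjusted p under 0.05), where 1.79% of 34013 genes did: Acat2, Hmgcs1, Mvd, Idi1, Fdps, Fdft1, Sqle, Lss, Msmo1, Dhcr7 and Tmem97. The effect was larger in prostate than in skin for 13 members (1.12% of all genes), than in forebrain for 9 (0.676%) and than in ovary for 6 (1.09%), and smaller for 0. Acat2, Hmgcs1, Idi1, Fdft1, Lss and Tmem97 exceeded all 3 other tissues. Ovaries came from intact females, so in the contrast with ovary and in the F test sex and castration cannot be told apart from tissue.

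For Hmgcs1 the effect in prostate exceeded that in ovary by 2.20 ± 0.47 (SE, adjusted p = 0.0268), that in skin by 3.94 ± 0.47 (adjusted p = 0.000288) and that in forebrain by 3.30 ± 0.50 (adjusted p = 0.00425). For Acat2 the differences were 1.74 ± 0.31 (adjusted p = 0.0103), 3.40 ± 0.31 (adjusted p = 3.52e-05) and 2.71 ± 0.33 (adjusted p = 0.000722). For Mvd, prostate minus ovary was 1.46 ± 0.36 and did not pass (adjusted p = 0.0548), while the differences from skin (2.68 ± 0.36) and forebrain (2.83 ± 0.38) did. Tmem97, the 1 gene outside synthesis with a difference, gave 1.30 ± 0.27, 2.40 ± 0.27 and 1.90 ± 0.29.

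Insig2, which fell in prostate, had differences of -1.22 ± 0.43 from ovary, -1.12 ± 0.43 from skin and -1.56 ± 0.46 from forebrain, none of which passed (adjusted p = 0.172, 0.251 and 0.135). Insig1 did not pass either, with prostate minus skin at 2.41 ± 0.59 (adjusted p = 0.0504). The 6 members of the contrast with ovary were 1 without ovary DHT array 1, ovary vehicle array 3, prostate DHT array 1 or either of prostate vehicle arrays 1 and 2, 2 without ovary DHT array 2 or prostate DHT arrays 2 or 3, and 10 without ovary vehicle array 2, when 1 member also lay below 0. The 9 members of the forebrain contrast were 5 without forebrain vehicle array 2 or prostate DHT array 1. The 11 members of the F test were 19 without ovary vehicle array 2. In ovary fitted alone, 7581 of 29124 genes passed without that array, against 0 with all arrays. The share of all genes that passed the F test or the contrasts was not counted with 1 array left out.

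**Figure D4:**
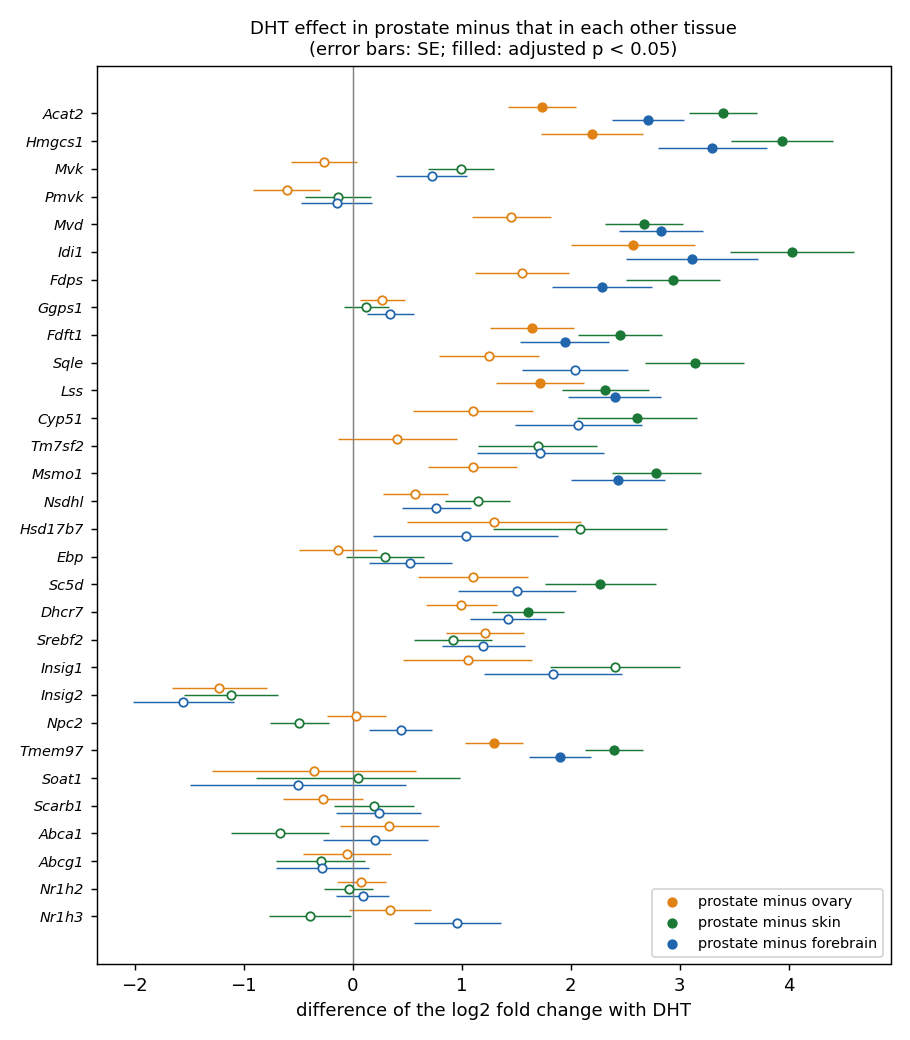
Log2 fold change with DHT in prostate minus that in ovary (orange), skin (green) and forebrain (blue) for each cholesterol gene, with the standard error; filled points passed an adjusted p of 0.05. The points of Acat2, Hmgcs1, Idi1, Fdft1, Lss and Tmem97 are filled for all 3 tissues, and 0 of the 5 genes of uptake, export and their receptors have a filled point.

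Without DHT, the level of 22 of 30 members differed between the 4 tissues (moderated F test on the vehicle groups, 74.2% of all genes), so this share is near that of all genes. Castrated males and intact females differ in sex and hormone state, which cannot be told apart from tissue where ovary is compared. Vehicle prostate had the lowest mean of the 4 tissues in 9 of 19 synthesis genes, and 6 of these passed the F test for a difference between tissues (Acat2, Hmgcs1, Mvd, Idi1, Msmo1 and Dhcr7). It had the highest mean in 5 (Mvk, Pmvk, Fdps, Lss and Ebp). With DHT, prostate lay above the vehicle mean of every other tissue in 16 of 19. These counts of lowest, highest and higher means compare means without their spread and were not made over all genes. The F test shows that some tissues differ and does not show which is lowest. Among these 16, ovary with DHT had a higher mean than prostate with DHT in Acat2, Mvd, Tm7sf2 and Msmo1, and a lower mean in the rest.

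Mvd illustrates the order. Its vehicle mean was 1.14 ± 0.32 (SD) in prostate, 2.80 ± 0.15 in ovary, 3.33 ± 0.16 in forebrain and 3.46 ± 0.28 in skin, of which forebrain and skin lay within their spread, and prostate with DHT reached 3.59 ± 0.16. Hmgcs1 was at 2.76 ± 0.34 in prostate, 3.88 ± 0.30 in ovary, 3.99 ± 0.21 in skin and 5.01 ± 0.12 in forebrain, with ovary and skin within their spread, and prostate with DHT reached 5.97 ± 0.47. Dhcr7 was highest in ovary (4.99 ± 0.31) and lower in skin (2.24 ± 0.38), forebrain (1.41 ± 0.21) and prostate (1.18 ± 0.29), the last pair within their spread, and DHT prostate at 2.39 ± 0.22 stayed below ovary.

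Scarb1 was highest in ovary, beyond its spread in the other tissues. It had 6.34 ± 0.08 in ovary, 3.11 ± 0.01 in skin, 1.32 ± 0.34 in prostate and 1.11 ± 0.04 in forebrain. Soat1 had 0.06 ± 0.97 in ovary, -1.89 ± 1.54 in skin, -2.34 ± 0.05 in prostate (2 arrays) and -4.77 ± 0.42 in forebrain, with ovary and skin within their spread. Abca1 and Npc2 also had their highest mean in ovary, but within the spread of skin (0.53 ± 0.75 against 0.28 ± 0.18 for Abca1, and 2.29 ± 0.29 against 2.27 ± 0.19 for Npc2). Abcg1 was highest in forebrain (3.85 ± 0.06) and between 2.74 ± 0.46 and 3.31 ± 0.55 elsewhere, with forebrain and ovary within their spread. Insig2 was highest in prostate, at 1.97 ± 0.13 against -0.71 ± 0.09 to -0.35 ± 0.33 in the other tissues, and prostate with DHT was at 0.87 ± 0.10. On its other probe vehicle prostate was also highest, at -0.43 against -1.65 to -1.53 in the other vehicle tissues. There prostate with DHT was at -1.67, no longer above them.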

How the data were processed

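The members, gene lists and motifs were chosen with earlier results of these data known, so a list is described by counts and medians and has no test. One-colour Agilent arrays were used. The deposited intensity values are the processed signal of each spot, background-subtracted and spatially detrended on a linear scale, which the deposited file headers credit to Feature Extraction 10.5.1.1 (10.1 per the submitters' processing notes, which also name limma). Values were log2 of this signal minus the 75th percentile of the array; control spots and outlier spots were left out, and no spot was saturated. Accessions were matched to symbols through a RefSeq table of GRCr8; no probe positions are given, because the array design uses another assembly. An accession with no symbol was counted as a gene of its own. Probes well above background on at least 3 arrays fitted were kept, and the probe with the highest mean signal stood for a gene.

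Each tissue was fitted with limma 3.58.1 in R 4.3.3 (lmFit, eBayes), with Benjamini-Hochberg adjustment over all genes tested and a threshold of 0.05. A fit of all 23 arrays, 34013 genes, took slide as a random block (6 slides of 4 arrays, correlation 0.0744 from 2000 genes). The fits were run on simulated data with independent noise for each gene. That simulation held no slide effect and no array of narrow signal range, so it could not test how the fits handle these. All members are named, in pathway order. Prostate array values are given for up to 3 members a step with the smallest adjusted p and for members that did not pass, and other pathway genes are named where they passed. Choices added for illustration in the other tissues were made after the values had been seen. Alternatives were normexp, quantile normalization, no filter, the mean of the probes, a replicate block, array weights, a joint fit, leaving out each array, leaving out ovary vehicle arrays 1 and 3 together, adding the excluded forebrain array, and no slide block. Intensities carry no counts, and precision is set by the number of arrays and the spread among them.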

Additional observations from a re-analysis of the deposited data

Results flagged for a closer look

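The effect of DHT differed between the 4 tissues for 11 of the 30 members by the moderated F test of limma over all 34013 genes, where 1.79% of all genes passed. The smallest adjusted p values were 0.000204 for Acat2 and 0.000964 for Tmem97. Of the early pathway, the adjusted p was 0.00161 for Hmgcs1, 0.00175 for Mvd, 0.00548 for Idi1 and 0.00922 for Fdps. For squalene and lanosterol formation it was 0.0114 for Fdft1, 0.00788 for Sqle and 0.0115 for Lss. For the sterol ring it was 0.00554 for Msmo1 and 0.0428 for Dhcr7. The test was of the difference itself. Ovaries came from intact females and the other tissues from castrated males, so sex and castration cannot be told apart from tissue there. All 11 members rose in prostate, and 0 of them passed in ovary, skin or forebrain fitted alone with limma, where at an unadjusted p under 0.05 lay 5 members in ovary, 4 in skin and 7 in forebrain, counted over all 30 members, against 10.6%, 4.95% and 27.4% of all genes tested.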

How the results depend on the processing

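In prostate, Acat2, Hmgcs1, Mvd, Idi1, Fdft1, Sqle, Lss and Tmem97 passed under all 12 alternatives other than the replicate block. The number of members that rose (17) was 9 with no filter on dim probes, and the number that fell (1) was 0 with normexp and 0 in the fit of all arrays. Calls lost were Fdps, Tm7sf2, Nsdhl, Hsd17b7, Sc5d and Insig2 with normexp, the same list without Insig2 and with Msmo1, Dhcr7 and Insig1 with no filter, and Tm7sf2, Hsd17b7, Insig1 and Insig2 in the fit of all arrays. With 1 array left out, 8 to 18 members rose and 0 to 1 fell, and the median of the synthesis genes was 1.68 to 2.13. Of all genes tested, 2298 passed in prostate, against 629 with normexp, 619 with no filter, 1177 in the fit of all arrays, 5158 with array weights and 596 to 2739 with 1 array left out.

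In ovary 6 members rose with array weights, where 7780 of 29457 genes passed in either direction, and 0 under the other alternatives. With 1 array left out 0 to 0 members passed in ovary, skin or forebrain, and the median of the synthesis genes was 0.55 to 0.79 in ovary, -0.68 to -0.27 in skin and -0.17 to -0.10 in forebrain. In forebrain it was -0.071 with quantile normalization and 0.24, reversed in sign, with vehicle array 3 included. The median of all genes was 0.06 in prostate (-0.14 with normexp), -0.23 in ovary (0.09 with quantile normalization) and -0.02 in forebrain (-0.19 with normexp). All genes called in ovary were 0 (limma; 3129 at an unadjusted p under 0.05), against 15 with quantile normalization, 518 in the fit of all arrays and 7581 without vehicle array 2. In forebrain they were 0 (7234 unadjusted), against 500 with normexp, 22 in the fit of all arrays and 49 without vehicle array 1.

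For the difference between tissues, the prostate minus ovary contrast gave 1 member with normexp in place of 6. With 1 array left out, the F test gave 8 to 19 members. Prostate minus ovary gave 1 to 10 above 0 and 0 to 1 below, prostate minus skin 10 to 15 and 0 to 0, and prostate minus forebrain 5 to 11 and 0 to 0. The share of all genes was not counted in these fits with 1 array left out.

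The replicate numbers were not taken to pair the samples: deviations of arrays with the same number correlated between -0.43 and 0.01, and 0 of 11 numbers had their best partner under the same number. With the replicate block, limma called 0 members higher and 0 lower in prostate, with adjusted p from 0.0574 to 0.182 for the 18 calls. In that fit 0 of 23829 genes passed, and 18 members and 4808 genes had an unadjusted p under 0.05. The F test and the contrasts with ovary, skin and forebrain also gave 0 members each, with 14, 9, 18 and 14 members, and 3346, 3941, 2328 and 1697 of 34013 genes, at an unadjusted p under 0.05. The cause of these changes was not tested.

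The median standard error of the 30 members was 0.25 in prostate, 0.31 in ovary, 0.31 in skin and 0.15 in forebrain, on the log2 scale, so it was smallest in the tissue with the fewest arrays.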
